A study of Mus musculus with 10 samples.

Results

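Striatal projection neurons are the GABAergic output neurons of the striatum, and 10 genes used as their markers were followed in cells sorted from the embryonic mouse brain. The genes were chosen by name: the transcription factors *Isl1*, *Ebf1*, *Zfp503*, *Six3* and *Rarb*, the receptors *Drd2* and *Adora2a*, the signalling protein gene *Ppp1r1b*, and the neuropeptide precursors *Penk* and *Tac1*. All 10 were found among the 14300 genes of the deposited count table. In the TdTomato+ cells 9 of them were lower than in the TdTomato- cells, and *Ppp1r1b* was higher. The fitted log2 fold changes of the 9 ran from -1.50 (*Penk*) to -4.87 (*Tac1*), and that of *Ppp1r1b* was 3.27. At the adjusted p threshold used for these calls, given below, 39.4% of all genes were lower and 37.9% higher.

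The cells were from E14.5 embryos of the strain C57BL/6J that carried *Grem1creERT; Rosa26LSLTdtomato*, a tamoxifen-inducible Cre driven by *Grem1* and a red reporter that Cre switches on. Both populations came from embryos exposed to tamoxifen, and the cells were collected 24 h later and sorted live into TdTomato+ and TdTomato- fractions, with Cre-negative littermates setting the gate. Each of 5 mouse numbers (2 to 6) gave 1 library of each population, so there were 5 TdTomato+ and 5 TdTomato- libraries. The methods of the study describe dorsal telencephalon without meninges, whereas the sample labels say brain, and the library kit, RNA input, read length and sequencer also differ between these sources. The reporter marks cells in which Cre was active after tamoxifen and their progeny, and the TdTomato- fraction holds every other live cell of the dissection, so neither fraction is a single cell type.

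In the mouse, most striatal projection neurons arise from progenitors of the lateral ganglionic eminence, in the ventral telencephalon. They form a direct pathway, with the dopamine receptor *Drd1*, substance P and dynorphin, and an indirect pathway, with *Drd2*, *Adora2a* and enkephalin. *Isl1* and *Ebf1* act in direct pathway neurons and *Six3* in indirect pathway neurons, while retinoic acid signalling through *Rarb* takes part in striatal differentiation. None of the markers is restricted to these neurons across the whole nervous system, and *Ppp1r1b* is also known from deep layer neurons of the cortex.

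Total counts were 23429034 to 27286180 per library. *Grem1* itself had 63.3 ± 3.10 CPM (reads scaled to library size) in the TdTomato+ and 6.11 ± 0.731 CPM in the TdTomato- libraries (SD, n = 5 each), so the libraries ranked as labelled for the gene behind the sort. Here and below, CPM are scaled by TMM, a normalization that corrects for differences in library composition. Fold changes and adjusted p-values come from edgeR with the mouse as a block. The median log2 fold change (TdTomato+ over TdTomato-) over all genes was -0.01.

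Among the 10 markers, 9 were lower and 1 was higher in the TdTomato+ cells at an adjusted p of 0.05 or less, where 39.4% of all genes were lower and 37.9% higher. With a log2 fold change of at least 2 in size as well, 7 were lower and 1 was higher, and 9.74% and 3.2% of all genes met the same thresholds in those directions. The libraries of the populations did not overlap for 9 markers, 8 lower and *Ppp1r1b* higher, against 32.4% and 29.1% of all genes. The median log2 fold change of the markers was -3.94. In sorted bulk RNA, fewer cells of a type and less RNA per cell cannot be told apart. *Tac1*, *Drd2* and *Six3* did not exceed 0.5 CPM in every TdTomato+ library, while all 10 markers exceeded it in every TdTomato- library. A gene had to exceed that level in at least 5 libraries to be in the table, so those 3 are in it through the TdTomato- libraries.

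**Figure D1:**
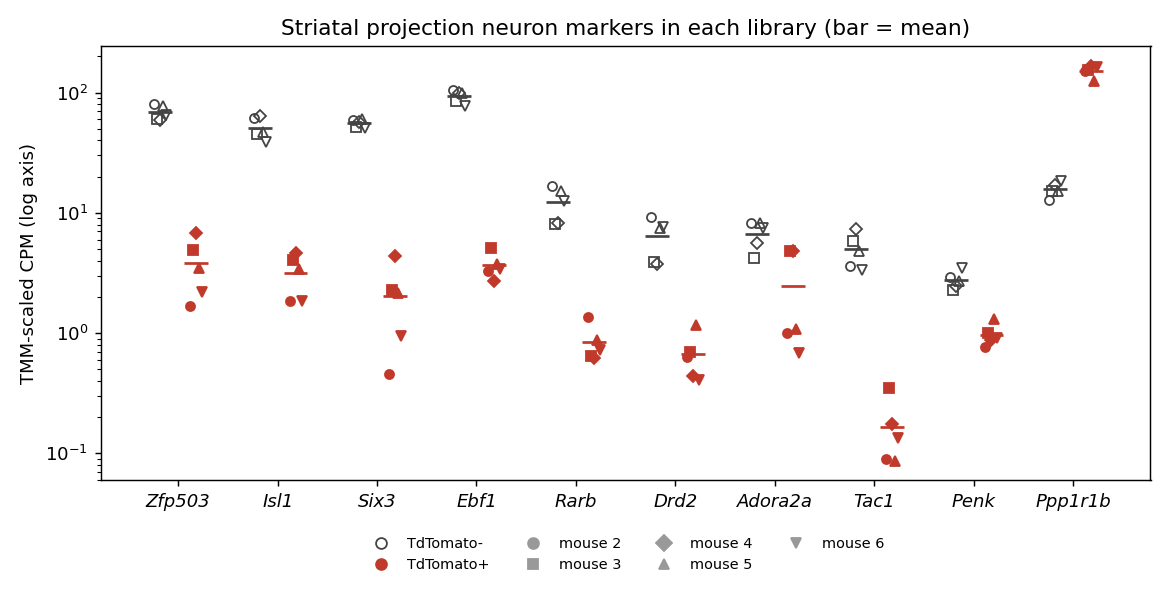
CPM on a log axis for each marker, with 1 point per library, open grey for TdTomato- and filled red for TdTomato+, symbols for the mouse and a bar for the mean of 5. The red points lie under the grey points for 8 markers and above them for *Ppp1r1b*, while *Adora2a* has 2 red points, near 4.81 CPM, within the grey range.

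Promoter sequences are shown for a transcription factor, a receptor and a peptide precursor that were lower together in the TdTomato+ cells. RefSeq promoters, from 250 bases before to 50 bases after the annotated start, matched 7 of the 10 markers (8 promoters, with 2 for *Ebf1*). *Adora2a*, *Ppp1r1b* and *Penk* were the others. The sequences are from GRCm38.p6, 5′ to 3′ on the gene's strand, and capitals mark the motifs that were searched for on both strands. *Rarb* is at chr14:16575427-16575726 on the minus strand, *Drd2* at chr9:49340153-49340452 and *Tac1* at chr6:7554811-7555110, both on the plus strand.
Rarb: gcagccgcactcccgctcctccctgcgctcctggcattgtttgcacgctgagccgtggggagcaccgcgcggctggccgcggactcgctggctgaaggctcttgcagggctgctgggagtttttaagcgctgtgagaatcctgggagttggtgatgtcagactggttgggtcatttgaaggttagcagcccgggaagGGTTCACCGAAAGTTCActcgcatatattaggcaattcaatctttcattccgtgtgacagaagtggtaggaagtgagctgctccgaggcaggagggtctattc
Drd2: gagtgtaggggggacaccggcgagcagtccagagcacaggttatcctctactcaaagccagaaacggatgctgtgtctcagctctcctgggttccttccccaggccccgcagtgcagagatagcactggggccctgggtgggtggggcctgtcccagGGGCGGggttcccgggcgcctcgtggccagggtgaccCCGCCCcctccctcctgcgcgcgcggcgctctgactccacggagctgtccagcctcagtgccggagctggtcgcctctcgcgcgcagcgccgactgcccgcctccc
Tac1: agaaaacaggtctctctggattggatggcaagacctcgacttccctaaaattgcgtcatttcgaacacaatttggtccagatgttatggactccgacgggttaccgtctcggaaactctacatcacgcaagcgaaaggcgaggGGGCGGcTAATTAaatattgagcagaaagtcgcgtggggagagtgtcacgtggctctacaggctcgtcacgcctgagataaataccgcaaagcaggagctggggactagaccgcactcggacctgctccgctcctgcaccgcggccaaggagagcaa

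The capitals in *Rarb* lie at -53 to -37, counted back from the start site. They match NGTTCA repeated after 5 bases, the spacing of a retinoic acid response element, which 0.0761% of 32851 promoters hold and which no other of the 8 marker promoters holds. In *Drd2*, GGGCGG, the core of a GC box, lies at -93 to -88 and, on the other strand, at -56 to -51. The *Tac1* promoter holds GGGCGG at -107 to -102 and TAATTA, a homeodomain core, at -100 to -95, without overlap between them. GGGCGG was in 35.7% and TAATTA in 5.29% of all promoters. The TATA box TATAAA, in 13.6% of all promoters, was in none of the 8. All 8 held more CpG dinucleotides than the median promoter, which holds 7, and 48.65% of all promoters do so. The motifs were chosen after these promoters had been looked at, and a match describes letters, not binding.

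The LIM homeodomain gene *Isl1* (ENSMUSG00000042258, chr13:116298281-116309689, minus strand) had 61.0, 44.9, 64.0, 47.2 and 39.0 CPM in the TdTomato- libraries of mice 2 to 6. In the TdTomato+ libraries, in the same order, it had 1.86, 4.03, 4.64, 3.39 and 1.85 CPM. Every TdTomato- library was far above every TdTomato+ library, and the TdTomato+ libraries of mice 2 and 6 were the lowest. The means were 51.2 ± 10.8 and 3.15 ± 1.26 CPM (SD, n = 5), and the fitted log2 fold change was -4.03 (s.e. 0.18, edgeR adjusted p = 6.91e-08).

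*Ebf1* (ENSMUSG00000057098, chr11:44617317-45008091, plus strand), a helix-loop-helix factor of direct pathway neurons, was the most abundant of the markers in TdTomato- cells in CPM, which is not corrected for length. Its values there were 105, 85.5, 98.7, 98.3 and 77.2 CPM for mice 2 to 6, against 3.31, 5.07, 2.74, 3.74 and 3.43 CPM in the TdTomato+ libraries. No library came near the other population, and the libraries of each population lay close together. The mean fell from 92.9 ± 11.3 to 3.66 ± 0.871 CPM (SD, n = 5), a log2 fold change of -4.66 (s.e. 0.14, edgeR adjusted p = 6.79e-09).

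*Zfp503* (ENSMUSG00000039081, chr14:21983959-21989601, minus strand) encodes a zinc finger protein, Nolz1, of the developing striatum. The TdTomato- libraries of mice 2 to 6 held 80.3, 60.0, 59.1, 77.6 and 65.1 CPM, and the TdTomato+ libraries 1.68, 4.94, 6.75, 3.48 and 2.21 CPM. Mice 3 and 4 had the lowest TdTomato- and the highest TdTomato+ values, and the populations still lay far apart. The log2 fold change was -4.19 (s.e. 0.28, edgeR adjusted p = 1.07e-06), from 68.4 ± 9.92 to 3.81 ± 2.07 CPM (SD, n = 5). Its log2 ratios within mice had an SD of 0.98, and with robust estimation the edgeR adjusted p was 0.000138.

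The homeobox gene *Six3* (ENSMUSG00000038805, chr17:85613608-85629302, plus strand) was the steadiest marker among TdTomato- libraries, at 59.5, 52.0, 56.6, 60.6 and 50.3 CPM. Its TdTomato+ values, 0.453, 2.30, 4.37, 2.17 and 0.949 CPM, came from counts of 10 to 99 reads. The TdTomato+ libraries therefore spread widely for *Six3* while the TdTomato- libraries hardly varied, with coefficients of variation of 74.1% and 8.10%. Its mean fell from 55.8 ± 4.52 to 2.05 ± 1.52 CPM (SD, n = 5), and its log2 fold change was -4.81 (s.e. 0.30, edgeR adjusted p = 6.65e-07). The log2 ratios within mice had an SD of 1.28, and with robust estimation the edgeR adjusted p was 9.23e-05. Of its exonic length, 5.03% overlaps the opposite-strand *Six3os1* and *Gm28528*, and the strand setting of the counts is not given in the sources used here.

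*Rarb* (ENSMUSG00000017491, chr14:16430839-16819156, minus strand) encodes a retinoic acid receptor, and the promoter printed above lies within this span. It had 16.8, 8.09, 8.30, 15.3 and 12.5 CPM in the TdTomato- libraries of mice 2 to 6 and 1.36, 0.651, 0.618, 0.870 and 0.723 CPM in the TdTomato+ libraries. Mice 3 and 4 were lowest in both populations, so the ratio within a mouse varied little (SD of the log2 ratio 0.26 over 5 mice). The fitted log2 fold change was -3.84 (s.e. 0.13, edgeR adjusted p = 1.42e-08), with means of 12.2 ± 3.97 and 0.844 ± 0.304 CPM (SD, n = 5). *Top2b* and *Gm48162*, on the opposite strand, overlap 38.4% of its exonic length. The paper describes strand-specific libraries, and the part of these genes in the *Rarb* counts was not tested. *Top2b*, which encodes a topoisomerase, had 698 ± 61.8 and 659 ± 47.2 CPM in TdTomato- and TdTomato+ cells.

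The dopamine D2 receptor gene *Drd2* (ENSMUSG00000032259, chr9:49340627-49408177, plus strand) was expressed at a low level. Its TdTomato- libraries held 9.19, 3.94, 3.77, 7.49 and 7.70 CPM, and its TdTomato+ libraries 0.635, 0.694, 0.441, 1.17 and 0.407 CPM, from 9 to 27 reads. Mice 3 and 4 had the lowest TdTomato- values, yet both lay above all TdTomato+ values. It fell from 6.42 ± 2.43 to 0.670 ± 0.307 CPM (SD, n = 5), a log2 fold change of -3.22 (s.e. 0.25, edgeR adjusted p = 2.62e-06).

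*Adora2a* (ENSMUSG00000020178, chr10:75316877-75334784, plus strand), an adenosine receptor gene of indirect pathway neurons, showed the widest spread between mouse pairs. The TdTomato- libraries of mice 2 to 6 held 8.29, 4.18, 5.61, 8.16 and 7.42 CPM, and the TdTomato+ libraries 0.997, 4.81, 4.81, 1.09 and 0.678 CPM. In mice 2, 5 and 6 the TdTomato+ level was far below that of the same mouse's TdTomato- cells, whereas mice 3 and 4 had similar levels in both and the populations overlapped. The log2 ratios within mice 2 to 6 were -3.05, 0.20, -0.22, -2.91 and -3.45. The means were 6.73 ± 1.78 and 2.48 ± 2.14 CPM (SD, n = 5), and the fitted log2 fold change was -1.62 (s.e. 0.54, edgeR adjusted p = 0.0207), lower in 4 of 5 mice.

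The call for *Adora2a* depended on the libraries and on the estimate of the spread. With robust estimation its edgeR adjusted p was 0.0706, and without mouse 2, 5 or 6 it was 0.0692, 0.0777 or 0.0608. Leaving out mouse 3 or mouse 4 gave log2 fold changes of -2.20 and -2.06, and leaving out both, an alternative chosen after the values were seen, gave -3.11 (edgeR adjusted p = 1.31e-07). Those mice were picked from these same values, so that p-value is not a test of the difference. The TdTomato+ counts behind these values were 22, 111, 109, 25 and 15 reads for mice 2 to 6, all above the floor of 3 counts. Markers of medial ganglionic eminence interneurons summed to 50.5 and 57.5 CPM in the TdTomato+ libraries of mice 3 and 4 and to 37.8 to 48.4 CPM in those of the other mice, though not every gene of that list went this way. Pallial neuron sums (5917 and 5751 against 5094 to 5448 CPM) and cholinergic sums (12.3 and 13.8 against 5.33 to 12.1 CPM) were also highest there. Those of the other cell lists were not. The part of these cells in the *Adora2a* values was not tested.

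**Figure D2:**
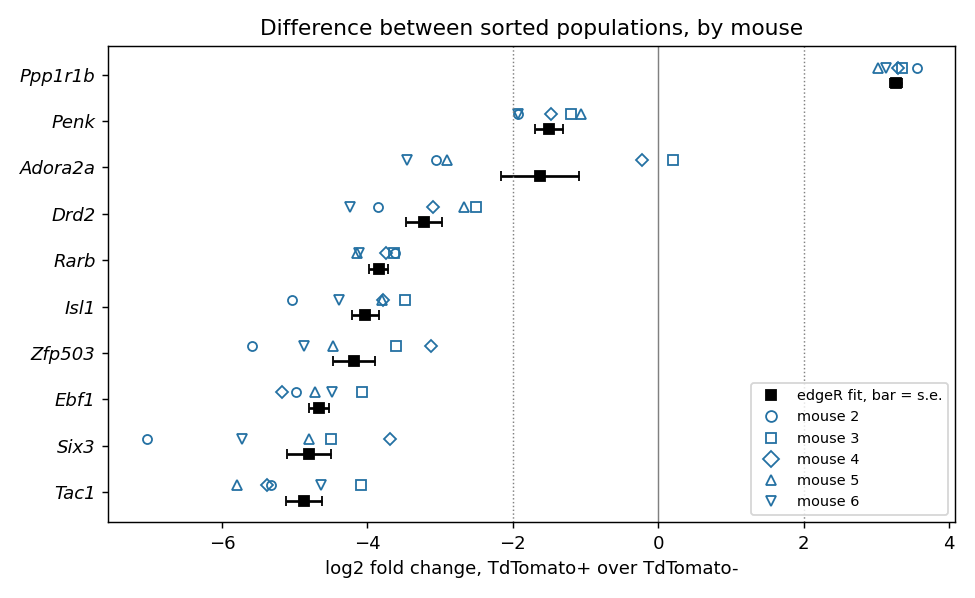
Log2 fold change, TdTomato+ over TdTomato-, for each marker, with the edgeR value and its s.e. as a black square and bar and the ratio within each mouse as open symbols, dotted lines marking -2 and 2. *Ppp1r1b* lies near 3.27 in every mouse, the mice of *Six3* run from -7.04 to -3.69, and *Adora2a* has mice 3 and 4 near 0 with the other mice below -2.

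*Ppp1r1b* (ENSMUSG00000061718, chr11:98348404-98357796, plus strand) moved against the other markers. It encodes DARPP-32, a phosphoprotein that inhibits protein phosphatase 1 when protein kinase A has phosphorylated it. The TdTomato- libraries of mice 2 to 6 held 12.9, 15.1, 16.96, 15.3 and 18.6 CPM, and the TdTomato+ libraries 152, 154, 167, 124 and 163 CPM. Every TdTomato+ library was higher by a wide margin, and the ratio within a mouse varied less than that of any other marker, with an SD of 0.21 on the log2 scale. The mean rose from 15.8 ± 2.13 to 152 ± 16.7 CPM (SD, n = 5), and the fitted log2 fold change was 3.27 (s.e. 0.08, edgeR adjusted p = 2.64e-09). The opposite-strand *1700003D09Rik* overlaps 15.7% of the exonic length of *Ppp1r1b*.

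*Penk* (ENSMUSG00000045573, chr4:4133531-4138819, minus strand), the enkephalin precursor of indirect pathway neurons, was low in both populations. Its TdTomato- libraries held 2.93, 2.28, 2.45, 2.73 and 3.45 CPM and its TdTomato+ libraries 0.771, 0.998, 0.883, 1.30 and 0.904 CPM. The populations did not overlap. The mean fell from 2.77 ± 0.457 to 0.972 ± 0.203 CPM (SD, n = 5), a fitted log2 fold change of -1.50 (s.e. 0.19, edgeR adjusted p = 7.99e-05) that was under the fold threshold. The opposite-strand *A830012C17Rik* overlaps 14.3% of its exonic length.

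*Tac1* (ENSMUSG00000061762, chr6:7554879-7565834, plus strand) encodes the precursor of substance P, a peptide of direct pathway neurons. Its TdTomato- libraries held 3.64, 5.87, 7.38, 4.83 and 3.38 CPM, and its TdTomato+ libraries 0.0907, 0.347, 0.177, 0.0870 and 0.136 CPM. The TdTomato+ values stand for only 2, 8, 4, 2 and 3 reads in mice 2 to 6, so 3 of the 5 libraries were at or under the floor of 3 counts. Over the 5 libraries of a population, 666 reads faced 19, a ratio of 29.7 after scaling, with a 95% interval of 18.8 to 49.6 that covers counting error only. The fitted log2 fold change was -4.87 (s.e. 0.25, edgeR adjusted p = 1.56e-07) and became -4.36 with a prior count of 2, with means going from 5.02 ± 1.65 to 0.167 ± 0.107 CPM (SD, n = 5).

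On a scale of CPM per kilobase of exonic length, which allows levels to be set side by side, the TdTomato- cells were led by *Zfp503* at 16.2, *Isl1* at 12.9, *Six3* at 10.2 and *Ebf1* at 9.52. In that order the ranges over libraries of each neighbouring pair overlapped. A gap followed to *Ppp1r1b* at 5.39 and another to *Drd2* at 2.52, *Rarb* at 2.32, *Adora2a* at 2.20, *Penk* at 1.69 and *Tac1* at 1.48 CPM per kilobase, where neighbours again overlapped. Thus transcription factors were high in TdTomato- cells and receptors and peptides low, with *Rarb* at the level of the receptors. In TdTomato+ cells *Ppp1r1b* stood at 52.0 CPM per kilobase, clear of all others. *Zfp503* (0.905), *Adora2a* (0.809), *Isl1* (0.797), *Penk* (0.595), *Six3* (0.376), *Ebf1* (0.375), *Drd2* (0.263) and *Rarb* (0.160 CPM per kilobase) followed with overlapping ranges between neighbours. *Tac1*, at 0.0492 CPM per kilobase, did not overlap *Rarb*, its neighbour, but its range met that of the widely spread *Six3*.

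Mice 3 and 4 took the same side for several markers. The TdTomato- libraries of mice 3 and 4 were both under those of mice 2, 5 and 6 for 5 markers (*Zfp503*, *Drd2*, *Adora2a*, *Penk* and *Rarb*) and both above them for *Tac1*, arrangements that 16.2% and 17.3% of all genes showed. Among TdTomato+ libraries, mice 3 and 4 were both above the other three for 5 markers (*Isl1*, *Zfp503*, *Six3*, *Adora2a* and *Tac1*) and both below them for *Rarb*, each of which 19.6% of all genes showed. No label sets mice 3 and 4 apart, and the grouping was noticed in these values. *Zfp503* and *Adora2a* were low in TdTomato- and high in TdTomato+ cells of the same mice.

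**Figure D3:**
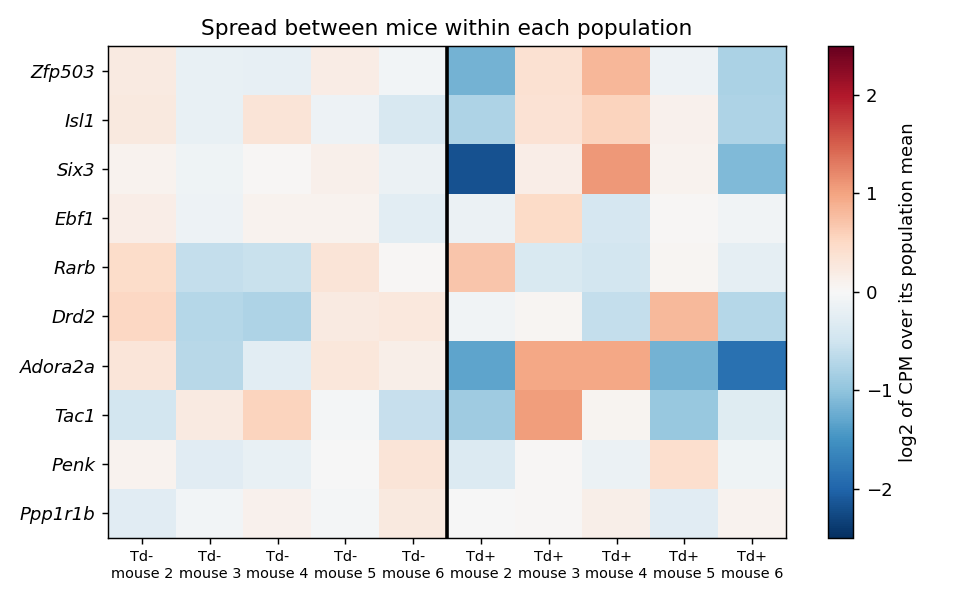
Log2 of CPM over the mean of its own population, with markers in rows and the 5 TdTomato- (Td-) and 5 TdTomato+ (Td+) libraries in columns, red above and blue below the mean. The Td+ side is more strongly coloured, above all for *Six3* and *Adora2a*, and mice 3 and 4 are blue in Td- for *Rarb* and *Drd2*.

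Markers of other cells moved between the same populations and mice, and their counts stand beside 39.4% of all genes lower and 37.9% higher. Microglia markers, 6 of 7 in the table and all 6 lower in TdTomato+ cells, summed to 61.2, 13.1, 17.6, 45.2 and 51.5 CPM in the TdTomato- libraries of mice 2 to 6, the same split of mice as for *Rarb* and *Drd2*, and to 0.725 to 1.67 CPM in TdTomato+ libraries (*Aif1* was not in the table). None of the 6 exceeded 0.5 CPM in every TdTomato+ library, so they too are in the table through the TdTomato- libraries. The same holds for 3 of the 6 Cajal-Retzius, all 4 pericyte and 3 of the 5 sensory ganglion genes in the table, so their counts and sums lean to the TdTomato- side by this choice. Cajal-Retzius markers, 6 of 6 lower, were highest in the TdTomato- libraries of mice 3 and 4, at 364 and 426 CPM against 227 to 289 CPM in the others, as was *Tac1*, and came to 128 to 165 CPM in TdTomato+ libraries. *Reln* made up most of these sums, at 181 to 321 CPM in TdTomato- and 122 to 143 CPM in TdTomato+ libraries, with a log2 fold change of -0.81. Beside *Ebf1*, which pericytes also express, pericyte markers (4 of 6 in the table, 3 lower) summed to 11.5 to 18.8 CPM in TdTomato- and 1.02 to 3.04 CPM in TdTomato+ libraries. Beside *Isl1*, which also marks cholinergic and sensory neurons, cholinergic markers had 2 of 6 in the table (1 lower, 17.6 to 36.7 against 5.33 to 13.8 CPM), without *Chat*, *Slc18a3* and *Slc5a7*. Sensory ganglion markers had 5 of 7 (3 lower, 1 higher, 15.2 to 25.7 against 7.07 to 11.2 CPM). Cholinergic and sensory ganglion sums, and the meningeal sums given below, were like the Cajal-Retzius sums highest in the TdTomato- libraries of mice 3 and 4. The part of these cells in the marker values was not tested.

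Other cell lists were summed in the same way, and their counts stand beside the same shares of all genes. Markers of medial ganglionic eminence interneurons (7 of 7 lower) summed to 381 to 450 CPM in TdTomato- and 37.8 to 57.5 CPM in TdTomato+ libraries, and progenitor markers (6 of 6 lower) to 1702 to 1991 and 104 to 147 CPM. Pallial neuron markers went the way of *Ppp1r1b*, with 6 of 7 higher, *Slc17a6* lower, and sums of 1233 to 1835 and 5094 to 5917 CPM. Endothelial markers (3 of 7 in the table, 1 lower) came to 2.61 to 4.44 and 1.72 to 3.13 CPM, without *Cldn5* and *Cdh5*, and none of these 3 exceeded 0.5 CPM in every TdTomato+ library. Meningeal markers (2 of 7, 1 lower) came to 1.88 to 5.29 and 0.564 to 1.09 CPM, and diencephalic markers (2 of 7, both lower) to 34.5 to 91.4 and 8.63 to 16.1 CPM. Both meningeal genes, 1 of the interneuron and 1 of the progenitor genes also did not exceed 0.5 CPM in every TdTomato+ library. Their part in the marker values was not tested either.

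Among 32 further genes of striatal projection neurons, 29 were in the table, of which 15 were higher and 12 lower in TdTomato+ cells, with a median log2 fold change of 0.31. Over all genes 37.9% were higher and 39.4% lower, so the lower share of the list was near that of all genes. Of the 29, 4 (*Ikzf1* and *Rxrg* among them) did not exceed 0.5 CPM in every TdTomato+ library. *Drd1*, the direct pathway dopamine receptor gene, rose from 2.53 ± 0.329 to 33.9 ± 5.10 CPM (SD, n = 5), a log2 fold change of 3.74, opposite to *Drd2*. *Arpp21*, a phosphoprotein gene of the same kinase pathway as *Ppp1r1b*, rose by 3.06 and *Gnal*, the G protein that couples striatal receptors to adenylyl cyclase, by 2.53. At the other end were *Sp9*, a zinc finger factor of indirect pathway neurons, at -5.55, *Ikzf1* at -4.06, which blood and microglial cells also express, and the retinoid X receptor gene *Rxrg* at -3.82.

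By role, 9 of 12 signal transduction genes of this list were higher and 3 lower, and 2 of 10 transcription factors were higher and 6 lower, beside 37.9% and 39.4% of all genes. The difference between the roles was not tested. Direct pathway genes had 3 higher and 2 lower of 5, and indirect pathway genes 1 of each. *Bcl11b*, a factor of striatal and of deep layer cortical neurons, was higher with a log2 fold change of 1.15 and *Foxp1* with 0.31. Among the 10 markers all 5 transcription factors were lower.

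Genes around DARPP-32 (*Ppp1r1b*) were all 18 in the table. Of these, 11 were higher, 2 lower and 5 did not pass, beside 37.9% higher and 39.4% lower of all genes, with a median log2 fold change of 0.49, and 3 of them (*Gnal*, *Gng7* and *Adcy5*) were also in the list above. The regulatory subunits of protein kinase A *Prkar2b* and *Prkar1b* rose by 1.45 and 1.38 on the log2 scale. The catalytic subunits of protein phosphatase 1, the enzyme that DARPP-32 inhibits, included the only genes to fall, *Ppp1ca* by 0.50 and *Ppp1cc* by 0.35. All of these log2 fold changes were smaller in size than the 3.27 of *Ppp1r1b*.

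The retinoid pathway around *Rarb* had 13 of 18 genes in the table, of which 11 were lower, beside 39.4% of all genes, and *Rdh10* was not called, at a median log2 fold change of -1.83. *Rarg* was the 1 that was higher, by 1.28. The retinoic acid synthesizing *Aldh1a3* fell by 5.73 and the retinaldehyde reductase gene *Dhrs3* by 5.12 on the log2 scale, from at most 8 and 4 reads per TdTomato+ library, and both are in the table through the TdTomato- libraries. This list also holds *Rxrg*, of the further genes above, which did not exceed 0.5 CPM in every TdTomato+ library. It shares genes with the paralogs of *Rarb* given below as well. Of the genes in peptide processing and peptide reception, 13 of 16 were measured, and 8 of them rose while 5 fell. Their median log2 fold change was 0.28 beside 37.9% of all genes higher and 39.4% lower, and without mouse 6 the number that fell was 3. The granins *Chgb* and *Scg2* and the convertase *Pcsk2* were higher by 1.31, 1.25 and 1.17. The amidating enzyme *Pam* (-1.97), the substance P receptor gene *Tacr1* (-1.50) and the opioid receptor gene *Oprm1* (-1.49) had the lowest values, and the receptor genes *Tacr1* and *Oprm1* did not exceed 0.5 CPM in every TdTomato+ library.

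Genes of the lateral ganglionic eminence and of GABA synthesis were all lower, 11 of 11, beside 39.4% of all genes, at log2 fold changes of -6.58 to -3.76. The progenitor genes *Gsx2*, *Dlx2* and *Gsx1* stood at -6.58, -5.71 and -5.54. *Gsx1*, *Gsx2* and *Sp8*, 3 of the 11, did not exceed 0.5 CPM in every TdTomato+ library and are in the table through the TdTomato- libraries. *Gsx2* had 2 to 4 and *Gsx1* 0 to 7 reads per TdTomato+ library, so that their fitted values depend on the prior count. *Gad1* and *Gad2*, which encode the GABA synthesizing enzymes, fell by 3.86 and 4.16, in the range of *Isl1*, *Zfp503* and *Rarb*. All 3 genes of GABA synthesis and loading and all 8 progenitor and precursor genes were called lower by the fold threshold, as were 7 of the 10 markers and 9.74% of all genes.

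**Figure D4:**
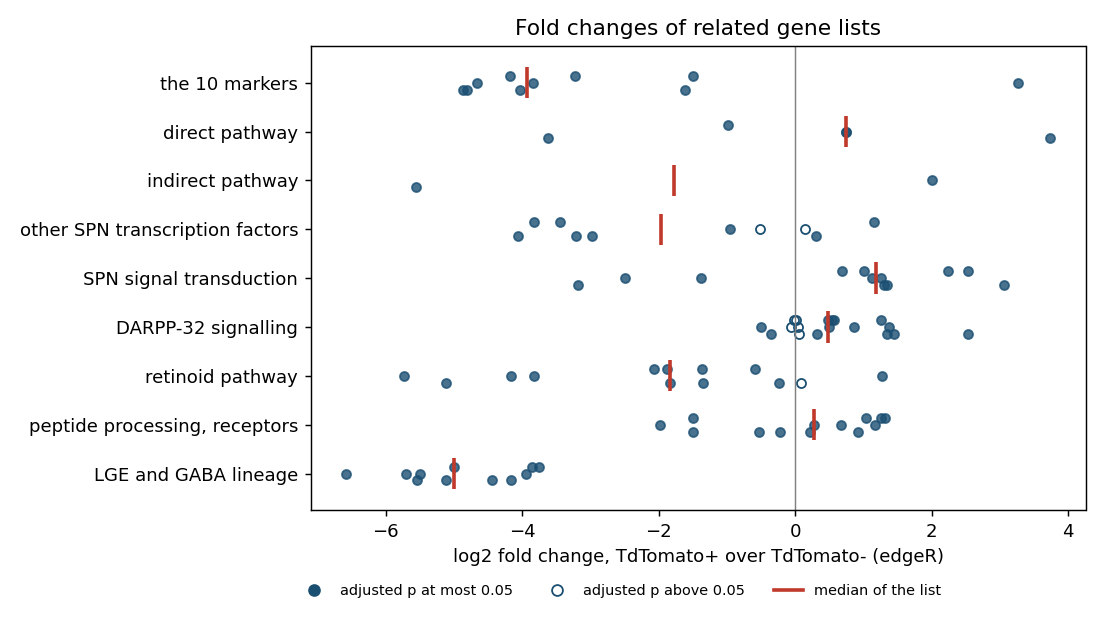
Log2 fold changes, TdTomato+ over TdTomato-, of the markers and of related lists, with 1 point per gene, filled at an adjusted p of 0.05 or less, and a red line for the median of each list. The 10 markers (median -3.94) lie left of 0 except for 1 point at 3.27, signal transduction genes of striatal projection neurons and DARPP-32 genes lie mostly right, and genes of the lateral ganglionic eminence (LGE) lie left.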

How the data were processed

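RNA-seq was compared between sorted TdTomato+ and TdTomato- cells of 5 mouse numbers. The values deposited by the authors are unnormalized read counts for each gene, from uniquely mapped reads aligned to GRCm38 with STAR 2.4.2a (tool, version and build per the submitters' processing notes). The sources used here give neither the annotation nor the strand setting of these counts. Symbols came from GENCODE M21 of the same build (14271 of 14300 genes matched). Every gene exceeds 0.5 CPM in at least 5 libraries. Counts were tested in edgeR 4.0.16 (R 4.3.3; filterByExpr, TMM, glmQLFit, glmQLFTest) over all genes with the mouse as a block and Benjamini-Hochberg adjustment. Thresholds were 0.05 and a log2 fold change of 2, with a prior count of 0.125. Libraries with the same mouse number were treated as pairs, after the study's methods, and their deviations from group means correlated at 0.303, 0.268, 0.281, 0.186 and 0.316 across genes for mice 2 to 6. On simulated counts with no mouse effect, a log2 change of 3 was planted in 200 genes. Of the planted genes 195 were tested and 195 called, and no unchanged gene passed both thresholds. Far more genes differ in the real data, so this run does not measure the error of the real calls.

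The markers and all lists were chosen with earlier results of these data known, and lists were described by counts and medians. Named genes were the markers, the genes of each list with the 3 highest and 3 lowest log2 fold changes among those past the threshold, genes moving against their list, *Gad1*, *Gad2*, *Grem1*, and the 5 nearest profiles. A result under this rule is not reported here. Other genes named (*Bcl11b*, *Foxp1*, *Gng7*, *Adcy5*, *Sp8*, *Rdh10*, *Zfp703*, *Ebf2*, *Ebf3*, *Ebf4*, *Drd4*, *Reln* and genes that overlap a marker) were added after their values were seen. Alternatives were scaling by RLE or by upper quartiles, DESeq2 1.42.0, no filter, a filter of 1 CPM, no block, TREAT, a prior count of 2, robust estimation and each mouse left out. The paper gives 5 mice for the sort. Whether a mouse number stands for 1 embryo or more is not said in the sources used here, and p-values measure the spread between these samples.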

Additional observations from a re-analysis of the deposited data

How the results depend on the processing

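Of the counts of markers and list genes, 213 values under the alternatives stayed within 1.5 times the reported count, and 1 did not: the peptide genes called lower numbered 3 without mouse 6, and 3 to 5 as each mouse was left out, against 5. Some of the 213 could not move. The fit with no filter tested the same 14300 genes as the main fit, and a prior count of 2 leaves the p-values as they were. The 213 also hold values from leaving out both mice 3 and 4, chosen after the values were seen. Paralogs called lower, 7 to 9 as each mouse was left out against 10, counted as staying. The markers lower at the adjusted p numbered 8 to 9, and 7 to 8 with the fold threshold, as each mouse was left out. Of all 14300 genes, those fits called 5303 to 5486 lower, and 1365 to 1403 with the fold threshold. Without the replicate block, which pairs the populations of a mouse, 9 markers were lower and 1 higher, and 7 and 1 with the fold threshold. Of all 14300 genes, 5450 were then lower and 5224 higher, and 1385 and 461 with the fold threshold. The block changed no call of a marker, and *Adora2a* had a log2 fold change of -1.44 (edgeR adjusted p = 0.0184) without it. *Adora2a* was the marker whose adjusted p rose above 0.05, under the alternatives given with its values, with log2 fold changes of -2.20 to -1.27 as each mouse was left out, and the cause was not tested. TREAT against a log2 fold change of 2 called 7 markers lower and 1 higher, leaving out *Adora2a* and *Penk*. Of all 14300 genes TREAT called 1077 lower and 273 higher. Depth limits *Tac1* most, at 2 to 8 reads per TdTomato+ library.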

Other observations

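Relatives of the markers divided by gene. Of 26 listed paralogs, 15 were in the table, with 4 higher (*Drd1*, *Adora1*, *Rarg* and *Pdyn*), 10 lower and *Zfp703* not called, beside 37.9% higher and 39.4% lower of all genes, and a median log2 fold change of -0.81. As each mouse was left out 7 to 9 paralogs were lower, and with DESeq2 7, so the lower count depends on the libraries and the method. *Adora1*, the adenosine A1 receptor gene, rose from 14.8 ± 3.92 to 86.1 ± 26.0 CPM (SD, n = 5), a log2 fold change of 2.53. *Adora2a* was lower in 4 of 5 mice, with a call that depended on the libraries. An opposite-strand gene overlaps 20.1% of the exonic length of *Adora1*. *Rarg* rose by 1.28 where *Rarb* fell, and *Pdyn*, the dynorphin precursor of direct pathway neurons, rose by 0.74 at 0.634 ± 0.108 and 1.10 ± 0.420 CPM (SD, n = 5). *Pdyn* rested on 13 to 37 reads per library, its populations overlapped, and its log2 ratio in mouse 2 was -0.07. The other Six genes in the table, *Six5* and *Six4*, had log2 fold changes of -4.82 and -3.77 and the nociceptin precursor gene *Pnoc* -3.58, and the Ebf relatives *Ebf2*, *Ebf3* and *Ebf4* were all lower. *Six4*, *Six5*, *Pnoc*, *Ebf2* and *Drd4*, 5 of the 15, did not exceed 0.5 CPM in every TdTomato+ library.

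The 5 genes outside the markers with a profile nearest to the mean of the 10 markers over all 10 libraries were *Slc2a4*, *Klhl13*, *Gm10421*, *1190002N15Rik* and *AI464131*. Their distances, in log2 CPM centred on each gene's mean, were 0.321, 0.508, 0.573, 0.594 and 0.623, and their log2 fold changes were -2.90, -3.18, -3.12, -2.83 and -3.05. The markers themselves lay at 1.56 (*Drd2*) to 9.85 (*Ppp1r1b*) from that mean, so no marker was as near to it as those genes. That mean includes *Ppp1r1b*, which moved against the rest. The 5 genes were picked as the nearest of all others, so their closeness does not measure likeness to any marker.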
